A study of Homo sapiens with 6 samples.

Results

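The genes of the proteins of the cytosolic ribosome were examined in HEK-293T cells that expressed GFP-tagged RfA1 or GFP alone. The members were found by their gene symbols, RPL or RPS followed by a number, together with RPSA and RPLP0, RPLP1 and RPLP2. Ribosomal S6 kinases, read-through genes and pseudogenes were left out. This gave 83 genes of the 16655 in the deposited table, namely 46 of the large subunit, 31 of the small subunit and 6 paralogs that were kept apart. The paralogs are RPL3L, RPL39L, RPS27L and RPL22L1, which are known to be used more in some tissues than in others, and RPL26L1 and RPL7L1. HEK-293T is a cell line from human embryonic kidney in which SV40 large T antigen is expressed. RfA1 is reflectin A1, a protein of the iridocytes of squid. The control cells received the empty vector pEGFP-C1 and the other cells the same vector with RfA1, both with Lipofectamine 3000, and the cells were collected 24 h later. Each group had 3 RNA-seq libraries. Transfection was transient, and the libraries were made from whole dishes, so that fewer cells with a transcript and less of the transcript per cell cannot be told apart. All 8 genes listed as expressed in HEK-293 cells (KRT8, KRT18, VIM, CDH2, LIN28B, NEFM, NEFL and PAX2) were above 1 TPM in every library, and 0 of 4 genes of blood, liver and heart (PTPRC, ALB, HBB and MYH6) were.

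The ribosome is built from a large and a small subunit. The small subunit reads the mRNA, and the large subunit joins the amino acids and passes the chain out through a tunnel. Each protein is present about once per ribosome, with the exception of the P stalk proteins, and the genes are strongly expressed in dividing cells. Most of their mRNAs begin with a C followed by a run of pyrimidines, the terminal oligopyrimidine (TOP) tract, through which mTOR signalling controls their translation.

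The transcription starts of some members are shown because the TOP tract is what these genes share in sequence. The windows hold 15 bases on each side of the start annotated by RefSeq (GRCh38.p14), on the coding strand, and capitals mark an uninterrupted run of a C and at least 4 further pyrimidines from the first transcribed base.
RPLP0 (chr12:120201097-120201126, minus strand): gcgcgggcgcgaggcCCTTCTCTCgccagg
RPLP2 (chr11:809952-809981, plus strand): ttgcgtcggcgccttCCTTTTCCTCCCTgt
RPL41 (chr12:56116618-56116647, plus strand): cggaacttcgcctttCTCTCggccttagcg
RPL38 (chr17:74203663-74203692, plus strand): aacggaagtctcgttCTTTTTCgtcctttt
RPSA (chr3:39406705-39406734, plus strand): tttcctgccgcctgtCTTTTCCgtgctacc
RPS28 (chr19:8321481-8321510, plus strand): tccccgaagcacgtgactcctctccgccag
RPS15 (chr19:1438381-1438410, plus strand): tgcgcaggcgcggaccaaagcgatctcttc
RPL22 (chr1:6199581-6199610, minus strand): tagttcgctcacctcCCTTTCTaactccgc
RPL22L1 (chr3:170870181-170870210, minus strand): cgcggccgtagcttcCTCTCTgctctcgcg
RPS27 (chr1:153990747-153990776, plus strand): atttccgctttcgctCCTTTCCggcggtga
RPS27L (chr15:63157463-63157492, minus strand): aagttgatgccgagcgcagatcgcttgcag

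Promoter sequences were found for 66 of the 83 members. A C and at least 4 pyrimidines opened the transcript in 43 of the 66, or 65.2%, against 4.04% of 27305 promoters in the RefSeq table and 5.36% of the 10633 promoters of genes tested here. When the tract was allowed to begin within 5 bases of the annotated start, the shares were 77.3% of members and 21.1% of all promoters. RPS28 has such a tract 1 base after its annotated start and RPS15 has none at the start. RPL22L1 carries a TOP tract like its parent gene RPL22, whereas RPS27L has none at the site where RPS27 has one. The windows of 250 bases before and 50 after the start were searched on both strands. CCGGAAG, a core motif of ETS factors, was in 34.8% of the members, 10.7% of all promoters and 19.1% of the promoters of tested genes. AAGATGGC, a core motif of YY1, was in 10.6%, 3.03% and 5.29%. The Sp1 core GGGCGG was in 53.0%, 44.6% and 71.6%, and TATAAA was in 9.09%, 12.0% and 5.29%, in the same order. The members thus had GGGCGG less often and TATAAA more often than tested genes, the reverse of the order against all promoters. Among the 77 core members, that is, without the paralogs, the median log2 fold change of RfA1 against GFP was -0.044 for the 42 with the TOP start. It was -0.053 for the 20 with another start and -0.035 for the 15 without a promoter entry. Of the 62 core members with an entry, 50 had a tract that began within 5 bases. The group with another start thus holds genes with a tract near the start, RPS28 among them.

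The depth was 10272306 to 11566284 estimated counts per library. Values are given as CPM, counts scaled to a library of 1000000 after TMM normalization, for comparisons of a gene between libraries, and as TPM, which is per gene length, for comparisons between genes. The groups were compared with edgeR's quasi-likelihood test over all 13002 genes that passed the filter on low counts, and p-values were adjusted over all of them by the Benjamini-Hochberg method. Of the members 82 passed the filter, and RPL3L did not. The labels give replicate numbers but do not say that the libraries came from separate cultures, so that the p-values measure the spread between these libraries, which may be technical. No 2 libraries were alike within counting noise, the chi-square per degree of freedom for a pair being 1.92 to 17.3. RfA1 replicate 2 was nearer to GFP replicates 2 and 3 (3.73 and 3.69) than to RfA1 replicates 1 and 3 (11.3 and 13.9). GFP replicate 1 was nearer to RfA1 replicate 1 (5.39) than to either other GFP library (7.91 and 5.61), and at 5.87 from RfA1 replicate 3. Over all genes the libraries thus did not sort by group, and leaving out RfA1 replicate 2 removes the RfA1 library most like the GFP libraries 2 and 3. Without it 2636 genes passed an adjusted p of 0.05, against 10 with all libraries, and results are therefore given with and without it. RfA1 replicate 2 was singled out from these same data, so that p-values without it are descriptive only.

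The ribosomal protein genes were among the most abundant transcripts. They took 11.7, 12.2 and 11.9% of the counts of GFP replicates 1, 2 and 3 and 11.3, 12.0 and 11.2% of RfA1 replicates 1, 2 and 3. As a share of TPM, which gives short transcripts more weight, they made up 33.0, 33.6 and 33.0% and 32.5, 33.0 and 32.0%. The median core member had 3077 TPM on average over the libraries, against 14.8 for all tested genes.

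RPS2, at the entry of the mRNA channel, had the highest level, 21116 ± 725 TPM in GFP cells (SD, n = 3) and 19629 ± 737 in RfA1 cells. In counts it was also the largest, with 10602 ± 636 CPM in GFP cells. RPS15, in the head of the subunit, had 15379.9 ± 1476 TPM in GFP cells and 12352 ± 2394 in RfA1 cells. In the large subunit the highest levels in GFP cells were those of RPL41, the smallest protein of the ribosome, with 13490.2 ± 664 TPM, of RPL35, at the rim of the exit tunnel, with 13300 ± 768 TPM, and of RPLP2 with 11128 ± 770.0 TPM. RPL41 and RPL35 did not differ beyond their SD in either group. The lowest levels within each subunit were those of RPL14 with 112 ± 1.65 TPM, RPL37 with 178 ± 7.92 TPM, RPS23 with 368 ± 22.2 TPM, RPL37A with 425 ± 56.2 TPM, RPS14 with 722 ± 14.9 TPM and RPS15A with 740.5 ± 52.4 TPM in GFP cells. RPL14, RPL37 and RPS23 were separated by more than their SDs, RPS23 and RPL37A were not, and neither were RPS14 and RPS15A.

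This order on the TPM scale depends on the length by which the authors divided. The length implied by the deposited counts and FPKM ranged from 58.4 bases for RPS29 to 7313 bases for RPL37 and was 6768 for RPL14, although the members are small proteins. Over the 77 core members the level in TPM had a Spearman's rho of -0.766 with this length, a description in which both values share the length. In counts, RPL37 had 954 ± 56.7 CPM and RPS29 128 ± 8.40 CPM in GFP cells, the reverse of their order in TPM. RPS29 was the core member with the fewest counts. The median was 1536 CPM for the large subunit and 1021 CPM for the small subunit.

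**Figure D1:**
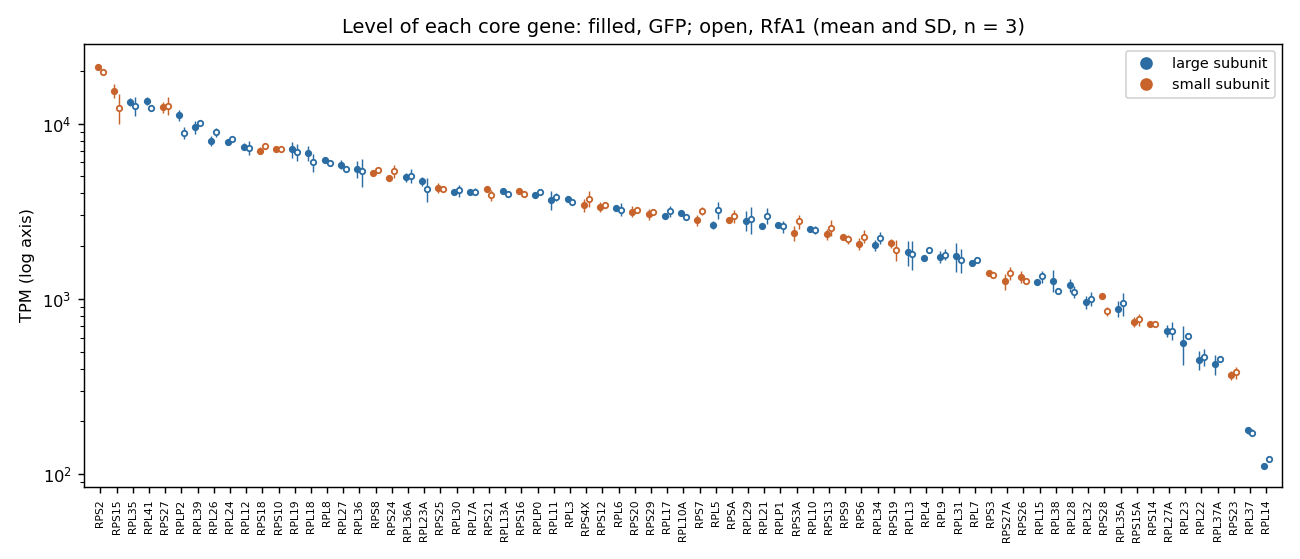
Level of 73 of the 77 core ribosomal protein genes in TPM on a log axis, ordered by the mean over all libraries, with filled points for GFP and open points for RfA1 (mean and SD, n = 3). The levels run from RPS2 at the top to RPL37 and RPL14 at the bottom, and the GFP and RfA1 points of a gene lie close together compared with the differences between genes.

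The spread among the GFP libraries was small for most core members, with a median CV of 6.22%. It was lowest for RPS28, 0.906%, and highest for RPL23, 22.1%, a protein at the interface of the subunits. RPL23 had 1188, 755 and 1053 CPM in GFP replicates 1, 2 and 3 and 1028, 1079.6 and 1059 in RfA1 replicates 1, 2 and 3. RPL13 had 2094, 3008 and 2875 CPM in GFP and 2239, 3229.9 and 2050.0 in RfA1 replicates 1, 2 and 3. RPL31, at the rim of the exit tunnel, had 724, 1053 and 950.4 and 768, 1027 and 721 CPM in the same order. RPL13 and RPL31 were low in GFP replicate 1 and RfA1 replicates 1 and 3 and high in GFP replicates 2 and 3 and RfA1 replicate 2, so that their variation cut across the groups. RPL23 differed from this, with GFP replicate 2 alone low. These 3 genes were chosen after their values were seen.

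In the comparison of RfA1 with GFP cells, edgeR called 0 of the 82 members at an adjusted p of 0.05, against 0.0769% of all tested genes. At an unadjusted p under 0.05 there were 3 members higher with RfA1, or 3.66%, against 7.30% of all tested genes, and 7 lower, or 8.54%, against 6.64%. The higher ones were RPL22L1, RPL5 and RPL7L1, and the lower ones included RPLP2, RPS28, RPL41, RPS15 and RPL38. DESeq2 called 1 member, RPLP2, and 0.254% of all tested genes. The number of members at an unadjusted p under 0.05 was 36 of 82, or 43.9%, without RfA1 replicate 2, against 34.9% of all genes tested in that fit. It was 13, or 15.9% against 17.2%, without GFP replicate 1. It was 4 (4.88% against 6.55%) without GFP replicate 2 and 6 (7.32% against 7.45%) without GFP replicate 3. Without RfA1 replicate 1 or 3 it was 3 (3.66%), against 6.70% and 6.82%. The members' count thus went up and down with that of all genes. In 5 members every RfA1 library lay above every GFP library, or 6.10% against 9.86% of all tested genes, and in 6 every RfA1 library lay below, or 7.32% against 8.01%. In both directions the share of members without overlap was below that of all genes, and at an unadjusted p it was below for higher and above for lower values.

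For 80 of the 82 members the 95% interval of the log2 fold change (not adjusted for the number of genes) lay within a 1.5-fold change in either direction, which is 0.585 on the log2 scale. The exceptions were RPS15, whose interval ran from -0.68 to -0.044, and RPL22L1, whose interval ran from 0.20 to 0.61. The half-width of the interval was between 0.14 and 0.36 for the core members.

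**Figure D2:**
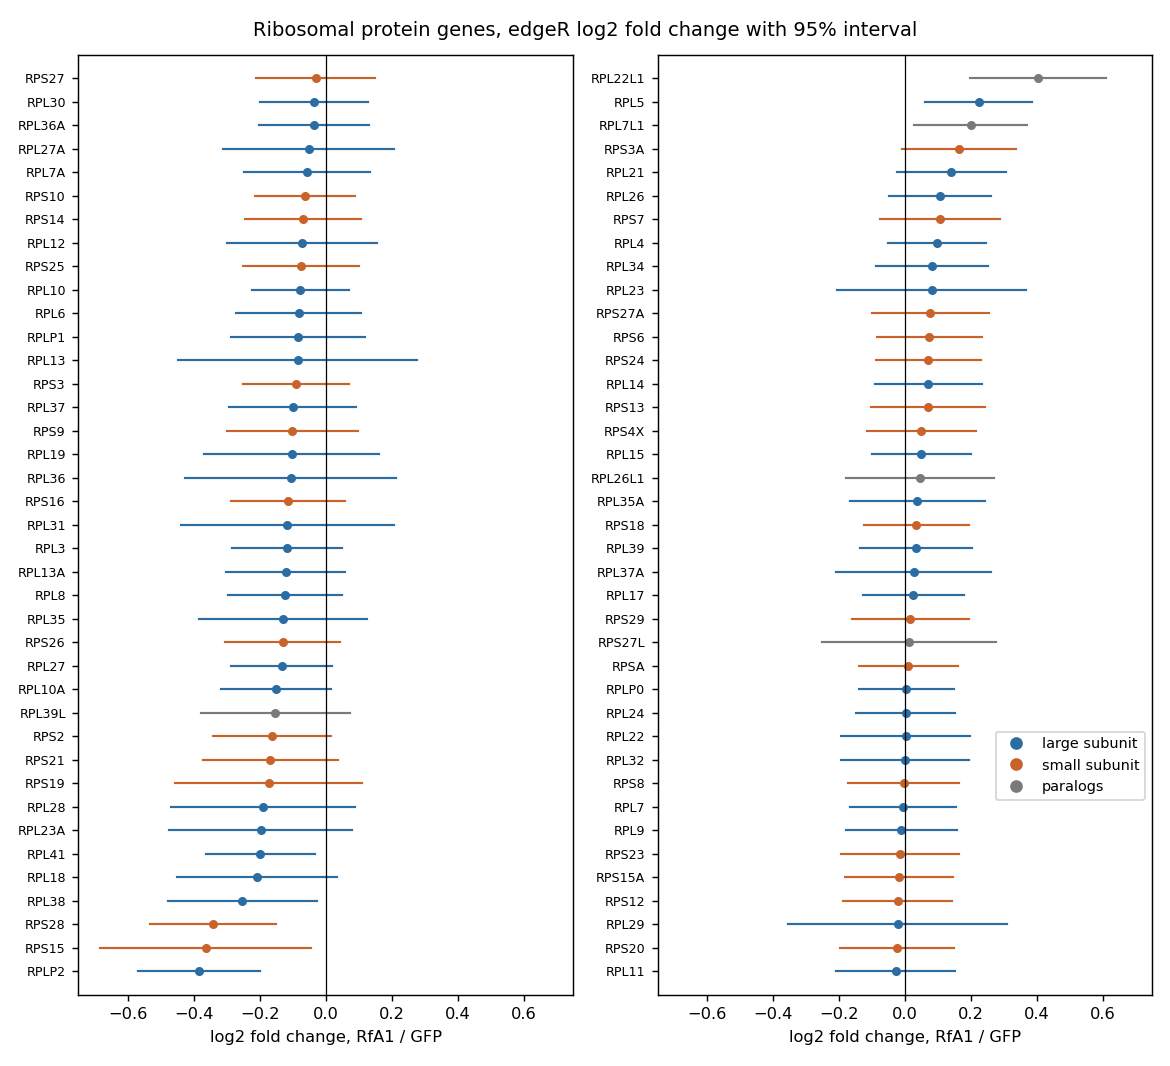
Log2 fold change of RfA1 against GFP for 78 of the 82 tested members with the 95% interval of edgeR's fit, ordered from the lowest (bottom left) to the highest (top right), in blue for the large subunit, orange for the small subunit and grey for paralogs. Most intervals include 0, and the estimates run from -0.39 for RPLP2 to 0.40 for RPL22L1.

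Without RfA1 replicate 2, 21 of the 82 members passed the adjusted p, 18 lower and 3 higher with RfA1. The 18 were 21.95% of the members, against 11.5% of all 13129 genes tested in that fit, and the 3 were 3.66%, against 8.56%. Lower were 11 of the 46 large subunit genes (among them RPL8, RPL10A, RPL18, RPL19, RPL23A, RPL35, RPL36, RPL38, RPL41 and RPLP2) and 7 of the 31 small subunit genes (among them RPS2, RPS15, RPS19, RPS21 and RPS28). The 3 higher ones were again RPL5, RPL7L1 and RPL22L1. In the fits that left out another library, 0 members passed, and 0 to 4 of all genes did.

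Among the large subunit genes, those of the P stalk, which recruits the translational GTPases, had different values. RPLP2 (Gene ID 6181), an acidic stalk protein, had 1477, 1754 and 1734 CPM in GFP replicates 1, 2 and 3 and 1337, 1243 and 1220.1 CPM in RfA1 replicates 1, 2 and 3. All 3 RfA1 libraries, replicate 2 included, lay below the GFP libraries. The log2 fold change was -0.39 (SE 0.085, adjusted p = 0.175 by edgeR), the smallest p of all members. DESeq2 gave -0.39 and called it, with an adjusted p of 0.0297. RPLP1, its partner in the stalk, had 1645, 1860.3 and 1793 and 1685, 1853 and 1462 CPM in GFP and RfA1 cells, with a log2 fold change of -0.084 (95% interval -0.29 to 0.12). RPLP0, the base of the stalk, had 2484, 2450.0 and 2414 and 2432, 2483 and 2452 CPM. Its groups overlapped in full, and the interval of its log2 fold change of 0.0039 ran from -0.14 to 0.15. The difference between RPLP2 and its partners was not tested.

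RPL5 and RPL11 form the 5S ribonucleoprotein with 5S rRNA, which can also bind MDM2 when ribosome assembly is disturbed. RPL5 had 1538, 1450.2 and 1479 CPM in GFP and 1788, 1621 and 1804 CPM in RfA1 replicates 1, 2 and 3, so that every RfA1 library was higher. Its log2 fold change was 0.22 (SE 0.074, adjusted p = 0.268 from edgeR's test). It was the one core member higher at an unadjusted p under 0.05. RPL11 had 1292, 1131 and 1072 and 1164, 1139 and 1124 CPM, with the RfA1 values inside the GFP range and a log2 fold change of -0.028.

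RPL41 had 3057, 3069 and 2844 CPM in GFP and 2492, 2798 and 2530.0 CPM in RfA1 replicates 1, 2 and 3, without overlap. The log2 fold change was -0.20 (SE 0.075, adjusted p = 0.306 from edgeR's test). Its counts were not whole numbers in any library, as is the case where a counting method divides reads between loci. RPL38, a protein known for a skeletal phenotype when it is reduced in mice, had 923, 824 and 709.8 CPM in GFP and 652, 763 and 647 CPM in RfA1 replicates 1, 2 and 3. GFP replicate 3 lay below RfA1 replicate 2, and the log2 fold change was -0.25 (SE 0.10, adjusted p = 0.325 from edgeR's test). RPL10A had 1027, 1118 and 1068 and 934, 1032 and 927 CPM, with RfA1 replicate 2 inside the GFP range.

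In the other direction, RPL4, which forms part of the wall of the exit tunnel, had 2983, 3198 and 3125 CPM in GFP and 3304, 3361 and 3286 CPM in RfA1 replicates 1, 2 and 3, without overlap, but by a log2 fold change of only 0.097 (adjusted p = 0.512 from edgeR's test). RPL26, at the rim of the tunnel, had 1647, 1585 and 1515 and 1753, 1701 and 1658 CPM, also without overlap and with a log2 fold change of 0.11. RPL21 had a log2 fold change of 0.14 and RPL14 of 0.070. RPL10 and RPL27, named after their values were seen, were lower in every RfA1 library, by log2 fold changes of -0.077 and -0.13. RPL10 sits near the peptidyl transferase centre and joins the subunit late in its assembly. Of the 46 large subunit genes, 15 had a positive and 31 a negative log2 fold change, with a median of -0.054 against -0.0024 over all tested genes. The median was -0.14 without RfA1 replicate 2.

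Among the small subunit genes, RPS28, on the mRNA exit side, had the smallest p. It had 821, 807 and 814 CPM in GFP replicates 1, 2 and 3, which lay close together, and 612, 725 and 590.4 CPM in RfA1 replicates 1, 2 and 3. No RfA1 library reached the GFP range, and RfA1 replicate 2 lay between the others and the GFP libraries. The log2 fold change was -0.34 (SE 0.087, adjusted p = 0.218 from edgeR's test), and -0.44 without RfA1 replicate 2 (adjusted p = 0.000825).

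RPS15 had 2368, 2856 and 2948 CPM in GFP and 1893, 2719 and 1737 CPM in RfA1 replicates 1, 2 and 3. The values of RfA1 replicates 1 and 3 were below all GFP values, but replicate 2 was not, and the SD of the RfA1 group was 528 CPM. With all libraries the log2 fold change was -0.36 (SE 0.15, adjusted p = 0.321 from edgeR's test), and without RfA1 replicate 2 it was -0.59 (adjusted p = 0.000752).

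RPS2 had 9924, 11186 and 10697 CPM in GFP and 8855, 10454 and 9104 CPM in RfA1 replicates 1, 2 and 3. RfA1 replicate 2 lay within the GFP range, and the log2 fold change of -0.16 did not pass (adjusted p = 0.393 from edgeR's test). RPS6, the classic substrate of the S6 kinases, had 1779.8, 1618 and 1632 and 1774, 1703 and 1813 CPM and a log2 fold change of 0.073 (95% interval -0.086 to 0.23). RPS27A, which is made as a fusion with ubiquitin, had 705, 642 and 596 and 704, 655 and 689.6 CPM, and its log2 fold change was 0.077. RPSA, also known as the laminin receptor, had 1801, 1845 and 1789 and 1805, 1768 and 1899 CPM, with overlapping groups and an interval from -0.14 to 0.16. RPS3A, RPS7, RPS6 and RPS24 had the smallest p-values among small subunit genes with a positive log2 fold change, where RPS3A, RPS7 and RPS24 had log2 fold changes of 0.16, 0.11 and 0.071 and unadjusted p-values from edgeR's test of 0.0626, 0.226 and 0.354. Of the 31 small subunit genes 10 had a positive and 21 a negative log2 fold change, with a median of -0.025, and of -0.060 without RfA1 replicate 2.

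**Figure D3:**
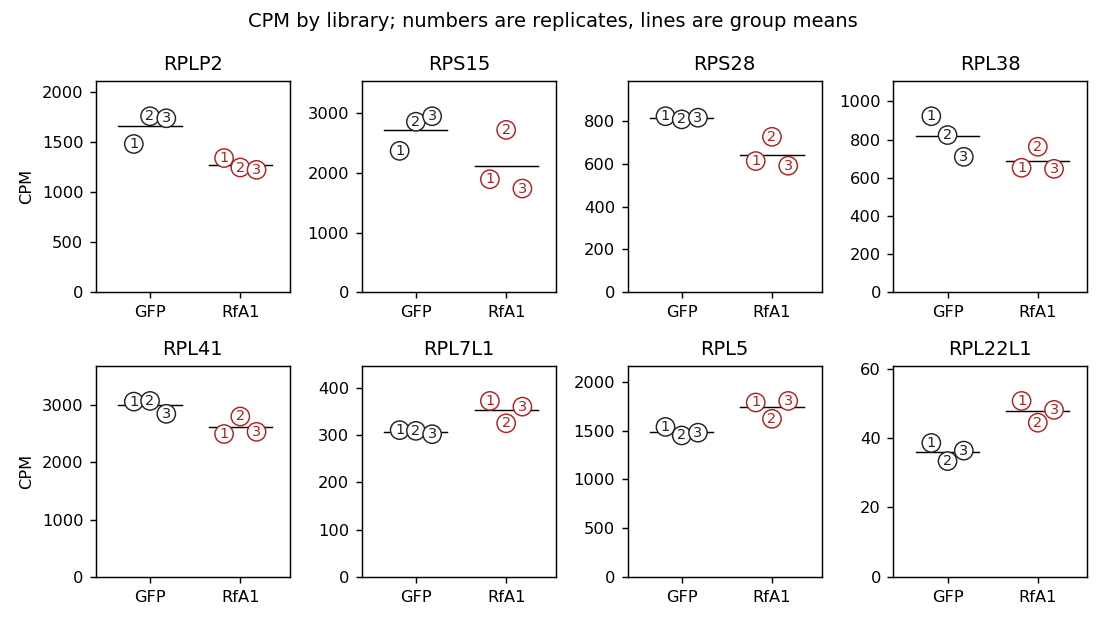
CPM in each library of 8 of the 10 members with an unadjusted p under 0.05, with the replicate number in each circle (black, GFP; red, RfA1), group means as lines and axes that start at 0. RfA1 replicate 2 is the highest RfA1 library in RPS15, RPS28, RPL38 and RPL41 and the lowest in RPL7L1, RPL5 and RPL22L1, while in RPLP2 all 3 RfA1 libraries lie together.

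The paralogs were expressed at very different levels. RPL22L1 (Gene ID 200916), the paralog of RPL22, had 38.6, 33.4 and 36.4 CPM in GFP and 50.7, 44.4 and 48.1 CPM in RfA1 replicates 1, 2 and 3, and all RfA1 values were above all GFP values. The log2 fold change was 0.40 (SE 0.095, adjusted p = 0.179 from edgeR's test), the highest of all members. It ranged from 0.35 to 0.45 when 1 library was left out. After a correction of each library for the GC content of the transcripts it was 0.33 and passed (adjusted p = 0.0221), the 1 member to do so, where 1.56% of all genes passed. RPL22 itself had 657, 567 and 542 and 625, 554 and 589 CPM and a log2 fold change of 0.0014 (95% interval -0.19 to 0.20). In TPM, RPL22L1 stood at 6.44, 6.45 and 7.37% of RPL22 in GFP replicates 1, 2 and 3 and at 8.90, 8.80 and 8.96% in RfA1 replicates 1, 2 and 3, so that the ratio was higher in every RfA1 library.

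RPL7L1, which takes part in the assembly of the large subunit in the nucleolus, had 311, 309 and 302 CPM in GFP and 372, 325 and 360.3 CPM in RfA1 replicates 1, 2 and 3, without overlap. Its log2 fold change was 0.20 (SE 0.079, adjusted p = 0.319 from edgeR's test). RPL39L, a paralog known from male germ cells, had 22.04, 21.80 and 21.01 and 17.7, 20.8 and 19.8 CPM. The RfA1 values were all lower, by a log2 fold change of -0.15 (adjusted p = 0.500). It stood at 0.664% ± 0.0337 (SD, n = 3) of RPL39 in TPM in GFP cells. The implied lengths, 469 bases for RPL39L and 134 for RPL39, enter that share. In counts RPL39L had a mean of 21.6 CPM and RPL39 of 934 CPM in GFP cells. RPS27L, a known p53 target, had 23.5, 19.2 and 19.2 and 18.5, 21.7 and 22.2 CPM, with overlapping groups, RfA1 replicate 1 being the lowest library, and 0.0387% of the TPM of RPS27. Its implied length of 5849 bases against 101 for RPS27 enters that share, and its counts were not whole in any library. RPL26L1 had 69.4, 71.7 and 66.4 and 64.6, 82.9 and 66.7 CPM and a log2 fold change of 0.046. RPL3L, the form of heart and skeletal muscle, had 1, 1 and 1 counts in GFP and 0, 2 and 1 counts in RfA1 replicates 1, 2 and 3. At no more than 3 counts in any library no fold is given for it.

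The large subunit genes took 7.02, 7.45 and 7.22% of the counts of GFP replicates 1, 2 and 3 and 6.83, 7.36 and 6.73% of those of RfA1 replicates 1, 2 and 3. The small subunit genes took 4.60, 4.73 and 4.61% and 4.39, 4.58 and 4.39%. For the small subunit's summed share all 3 RfA1 libraries lay below all GFP libraries, RfA1 replicate 2 by the least. For the large subunit the groups overlapped. RPS2 alone took 0.902 to 1.096% of a library's counts and weighs on the small subunit's sum. The median log2 deviation of the small subunit genes from the GFP mean did overlap. It was -0.00136, 0.0391 and -0.0260 in GFP and -0.0749, 0.00435 and -0.0603 in RfA1 replicates 1, 2 and 3. Whether the shares separate without RPS2 was not tested. The share of all members was 11.9% ± 0.288 in GFP and 11.5% ± 0.444 in RfA1 cells (SD, n = 3), a difference about as large as the SD of the RfA1 group. Without RfA1 replicate 2 the RfA1 mean was 11.2%. The ratio of large to small subunit counts was 1.53, 1.57 and 1.56 in GFP and 1.56, 1.60 and 1.53 in RfA1 replicates 1, 2 and 3, with overlapping groups.

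**Figure D4:**
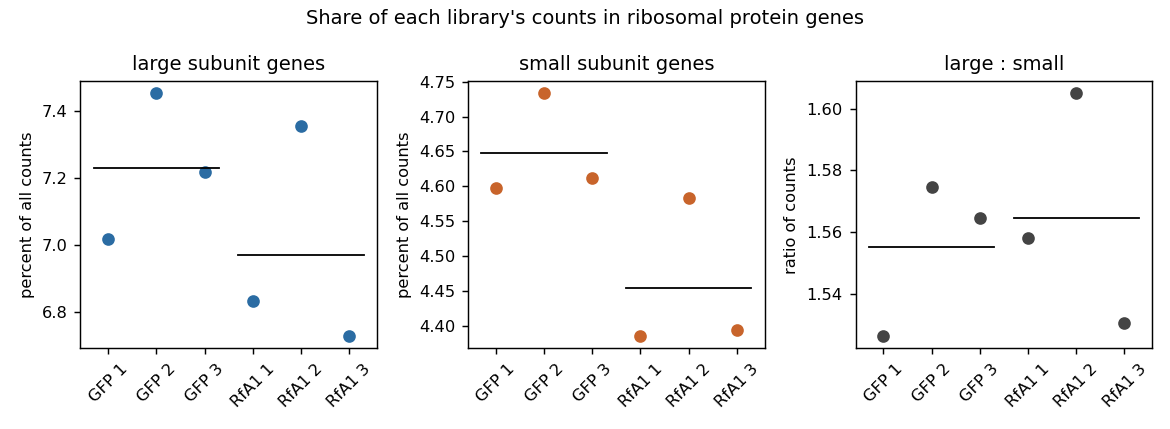
Percent of each library's counts in large subunit genes (left) and small subunit genes (middle) and their ratio (right), with 1 point per library and group means as lines; the axes do not start at 0. RfA1 replicate 2 lies among the GFP libraries for the large subunit, and RfA1 replicates 1 and 3 are the lowest libraries in both subunits.

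The log2 fold changes of the members varied with the GC content of their transcripts. Over the 77 core members Spearman's rho was -0.693, and -0.731 without RfA1 replicate 2, against -0.539 over the 12917 tested genes with a GC value. The points share their libraries, so that this is a description. Of the core members with at least 55% GC, 20 of 20 had a negative log2 fold change, where 82.3% of all tested genes of such GC content did. Of those under 45% GC, 8 of 24 did, against 24.2% of all such genes. RPL5, the core member with the highest log2 fold change, had the lowest GC content of all core members, 37.4%, and RPLP2, RPS15 and RPS28, the 3 with the lowest, had 60.6%, 60.05% and 59.9%. RPL35, with 63.7%, the highest GC content, had 1734, 2066 and 1849 CPM in GFP and 1589, 2077 and 1499 CPM in RfA1 replicates 1, 2 and 3, with RfA1 replicate 2 above all others.

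The relation differed between the libraries. With the GFP mean as the reference, rho between GC content and the deviation of the 77 core members was -0.490, 0.331 and 0.394 in GFP replicates 1, 2 and 3, and -0.716, -0.702 in RfA1 replicates 1 and 3. In RfA1 replicate 2 it was -0.00068. After the GC correction rho was -0.091 for the core members. The medians were then -0.042 for the large and -0.066 for the small subunit, against 0.0067 for all genes, and the log2 fold changes of RPLP2, RPS28 and RPL41 were -0.23, -0.21 and -0.22 (adjusted p = 0.123, 0.0851 and 0.1003). That of RPL5 was 0.11 (adjusted p = 0.338).

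All 12 core members on chromosome 19, among them RPL13A, RPL18, RPL28, RPL36, RPS9, RPS15, RPS16, RPS19 and RPS28, had a negative log2 fold change, with a median of -0.18, against -0.023 for the other core members. Of all 937 tested genes on that chromosome, 78.1% were negative, with a median of -0.12. The members there had a median GC content of 56.1%, against 46.8% for the others, and the parts of GC content and of position in these values were not tested.

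**Figure D5:**
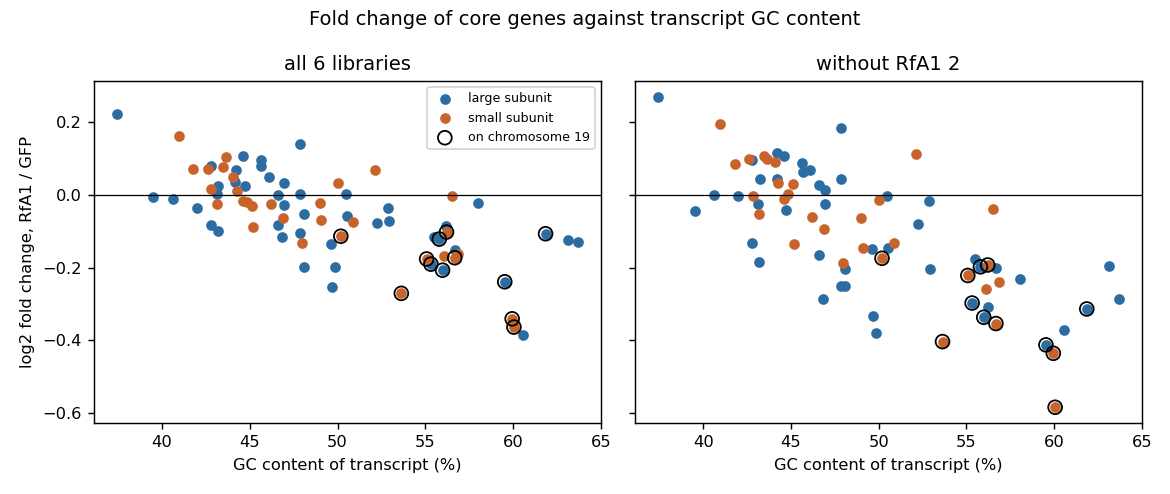
Log2 fold change of the 77 core members against the GC content of their transcript in percent, with all libraries (left) and without RfA1 replicate 2 (right), in blue for the large and orange for the small subunit and with a ring for genes on chromosome 19. The points slope downwards in both panels, with RPL5 at the upper left and RPS15, RPS28 and RPLP2 at the lower right.

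Of the proteins of the cytosolic ribosome whose symbols do not follow the pattern, RACK1, a scaffold on the head of the small subunit, had 3876, 3866 and 3642 CPM in GFP and 3510.3, 3596 and 3551 CPM in RfA1 replicates 1, 2 and 3. It was lower in every RfA1 library, with a log2 fold change of -0.095 that did not pass (adjusted p = 0.516 from edgeR's test). FAU, a ubiquitin-like fusion of the small subunit, had 437, 492 and 480.2 and 400.1, 567 and 361 CPM, with RfA1 replicate 2 the highest and RfA1 replicate 3 the lowest of all libraries. RPL36AL had a log2 fold change of 0.12.

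The genes that make and use ribosomes were counted alongside, and 0 of them passed the adjusted p in edgeR's test of all libraries, before the GC correction. Of 77 genes of ribosome assembly and RNA polymerase I, 14 were higher (18.2%) and 1 was lower (1.30%) at an unadjusted p under 0.05, where 7.30% and 6.64% of all tested genes were, with a median log2 fold change of 0.045. BRIX1, an assembly factor of the large subunit, had the smallest p of them, with 99.4, 92.2 and 93.9 CPM in GFP and 116, 108 and 127 CPM in RfA1 replicates 1, 2 and 3 and a log2 fold change of 0.30 (SE 0.085, adjusted p = 0.238). Of 15 other transcripts known to carry a TOP tract, 3 were higher and 0 lower, with a median of 0.035, and EIF3E, a subunit of initiation factor 3, had the smallest p (log2 fold change 0.21). Of 38 initiation factors 4 were higher (10.5%) and 0 lower, led by the helicase EIF4A2 (log2 fold change 0.33). The 78 proteins of the mitochondrial ribosome had 8 higher (10.26%) and 3 lower (3.85%), with a median of 0.010, and MRPL47 had the smallest p (log2 fold change 0.41). The 4 genes named here had GC contents of 38.2%, 37.9%, 38.7% and 38.0%, below the median of 48.7% of all tested genes. The medians of their whole lists, in the same order, were 47.9%, 46.1%, 45.9% and 47.7%. After the GC correction, 14 assembly genes were higher and 1 lower at an unadjusted p under 0.05. The counts were 1 and 0 for the other TOP transcripts, 4 and 3 for initiation factors and 6 and 4 for the mitochondrial ribosome. Over all 12917 genes of that fit they were 1208 and 862. At the adjusted p, 1 of the 77 assembly genes (1.30%) and 0 of the other lists passed in that fit, against 1.56% of all genes. Without RfA1 replicate 2, 8.56% of all genes were called higher and 11.5% lower at the adjusted p. For ribosome assembly 18 genes were higher (23.4%) and 8 lower (10.4%). For the initiation factors 6 were higher (15.8%) and 3 lower (7.89%). In both lists the higher share was above that of all genes and the lower share below it. Of the 15 other TOP transcripts 3 were higher and 2 lower, both shares above those of all genes. For the mitochondrial ribosome 8 were higher (10.26%) and 17 lower (21.8%). In the mitochondrial list more genes were called lower than higher, although the median was -0.0016, and both shares were above those of all genes. Whether the core ribosomal protein genes differ from these lists was not tested.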

How the data were processed

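Members and lists were chosen with earlier results of these data known. Libraries of GFP and RfA1 cells (n = 3 each) were grouped by the sample labels. The authors deposited estimated counts without normalization, and TPM and FPKM per gene length. The submitters' processing notes name HISAT and GRCh38.p13. The counting tool and annotation are not given in the sources used here. Averages over replicates were not used. Some genes are not reported by name here, though they enter the fits and counts.

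Counts were rounded, filtered with edgeR's filterByExpr (minimum count 10, minimum total 15), normalized by TMM and compared in edgeR 4.0.16 under R 4.3.3 (robust quasi-likelihood fit and its two-sided test), and p-values were adjusted over 13002 genes by Benjamini-Hochberg. Standard errors are the log2 fold change divided by the root of F. Members were read from this fit. Genes named with values were the paralogs, the 3 highest and lowest in TPM and the 4 smallest p-values per direction in each subunit, the P stalk, RPL5, RPL11, RPS6, RPS27A, RPSA, FAU, RPL36AL and RACK1, and the gene with the smallest p of each comparison list. GC content came from the longest transcript of a gene in GENCODE 29, for 98.3% of the genes, and a spline with 5 degrees of freedom per library was the offset of the GC correction. Promoters and chromosomes came from RefSeq (GRCh38.p14), and 82 of 82 tested members were matched. The scripts were tested on simulated data. Alternatives were DESeq2 1.42.0, upper-quartile normalization, total library size, no or a stricter low-count filter, a replicate block, the GC correction, limma 3.58.1 on log2(TPM + 1) and each library left out. Estimated counts were not whole for 8.43% to 13.3% of members per library, against 7.39% to 8.02% of all genes, and RPL12, RPL17, RPL36A, RPL41, RPS10 and RPS27L were not whole in any library. Ribosomal protein genes have many processed pseudogenes, so that these values are uncertain where reads were shared. Figures were drawn with matplotlib 3.10.9.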

Additional observations from a re-analysis of the deposited data

How the results depend on the processing

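The count of genes past the adjusted p over the whole table was 33 with DESeq2, 6 with upper-quartile normalization, 20 without a low-count filter, 4 with limma on TPM, 202 with the GC correction, 625 with the replicate block and 476 with both, against 10, and 0 to 2636 with 1 library left out. Of the members, 1 passed with DESeq2 (RPLP2), 1 with the GC correction (RPL22L1), 4 (4.88%, against 4.81% of all genes) with the replicate block (among them RPL22L1, RPLP2 and RPS28) and 7 (8.54%, against 3.69%) with the GC correction and the block (among them these 3 and RPL38, RPL41 and RPS15), against 0, and 0 to 21 with 1 library left out, 21 being without RfA1 replicate 2. Members at an unadjusted p under 0.05 were 19 with the block (23.2%, against 23.6% of all genes in that fit) and 17 with the GC correction and the block (20.7%, against 18.5%), against 10 (12.2%, against 13.9%), and 3 to 36 with 1 library left out (3.66% to 43.9%, against 6.55% to 34.9%). The median log2 fold change of the large subunit was -0.14 to -0.0093 with 1 library left out, and that of the small subunit -0.070 to 0.00078. The small subunit median was -0.066 with the GC correction, -0.066 also with the block, and 0.032 with limma on TPM, where the median of all tested genes was 0.045. The RfA1 minus GFP difference in the members' share of counts was -0.70 to -0.29 percentage points with 1 library left out, against -0.45.

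Same-numbered libraries deviated together with correlations of 0.253, 0.423 and -0.172 for replicates 1, 2 and 3, so that the numbers were not taken to pair the libraries. Of 480 refits of 32 named members, 425 kept direction and side of the threshold, 22 passed in addition and 33 turned sign. All turns were in members with log2 fold changes within 0.13 of 0. With the GC correction RPL35 was 0.034, RPL37A -0.026, RPS24 -0.0098, RPS27L -0.053 and RPSA -0.049, and with the block as well 0.035, -0.022, -0.010, -0.055 and -0.049. With limma on TPM RPL11 was 0.060, RPS15A 0.043 and RPS23 0.046. RPS23 was 0.0017 with total library size, and RPLP0 was -0.00083 with the stricter filter and -0.0018 with upper-quartile normalization. With 1 library left out the ranges were -0.084 to 0.052 for RPL11, -0.075 to 0.11 for RPL26L1, -0.075 to 0.14 for RPL37A, -0.0064 to 0.013 for RPLP0, -0.17 to 0.0014 for RPLP1, -0.070 to 0.013 for RPS15A, -0.061 to 0.050 for RPS23, -0.038 to 0.11 for RPS27L and -0.021 to 0.033 for RPSA. The causes were not tested. With 3 libraries a group, differences under about 0.14 on the log2 scale, the narrowest half-width of an interval, were within the error of every core member.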
